A study of Mus musculus with 2 samples.

Results

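The clustered histone genes are the 69 gene columns of the deposited table, of 25663 in all, whose symbols begin with Hist1h, Hist2h, Hist3h or Hist4h, the older mouse names for histone genes that lie side by side in the genome. By type they were 6 genes for the linker histone H1, 19 for H2A, 19 for H2B, 12 for H3 and 13 for H4. GENCODE M21 (GRCm38) places 55 of them on chromosome 13, 10 on chromosome 3, 3 on chromosome 11 and 1 on chromosome 6, and calls 66 protein-coding and 3 pseudogenes. In every row group formed here, 5 members stayed under 0.02 unique molecular identifiers (UMIs, the tags that mark single captured transcripts) per 10000 UMIs, and 64 reached that level in at least 1 group.

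The series holds RNA profiles of single epithelial cells, sorted from the small intestine of E18.5 mouse embryos of the strain given as C57BL6/J. There is 1 Control library, called wild-type in the protocol text, and 1 Tet3 knockout library, each made from the pooled cells of 2 embryos. The knockout allele lacks exon 5 of Tet3, a dioxygenase that oxidises 5-methylcytosine, which brings a stop codon into exon 6. It is a germ-line allele made in single embryonic stem cell clones, on a line that was then backcrossed. The cells were fixed in 90% methanol and read near the 3' end of each transcript with 10x Genomics chemistry.

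Barcodes in the table end in 1 of 2 suffixes, called set 0 and set 1 here. No label ties a suffix to a genotype, so Control and knockout were not compared, and values of the sets stand side by side only to show the spread between them. With 1 library per genotype there are no replicates, no test was made, and all intervals are 95% intervals for counting error alone. After 818 cells of set 1 that carry a barcode also found in set 0 were left out, 11053 cells remained (5933 of set 0 and 5120 of set 1), with a median of 23048 UMIs per cell. The epithelial markers Epcam, Cdh1, Krt8 and Krt18 summed to 28.7 UMIs per 10000 over all cells, and the 3 measured immune markers to 0.0049. The targeted gene, Tet3, stood at 0.329 UMIs per 10000 in set 0 and 0.215 in set 1. Tags near the 3' end lie outside the deleted exon and so check neither label.

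Nucleosomes wind DNA around an octamer of H2A, H2B, H3 and H4, and H1 binds the linker DNA between them. Most genes of the clusters are replication-dependent: they are transcribed while DNA is copied, lack introns, and give mRNAs that end in a conserved stem-loop, bound by Slbp, in place of a poly(A) tail. Replacement histones such as H3.3 and H2A.Z are encoded elsewhere by genes with introns and polyadenylated mRNAs. Some clustered genes are known to make longer, polyadenylated mRNAs as well. Capture here is by oligo-dT, which favours poly(A) tails, so the levels are those of transcripts that this priming caught, and how much stem-loop mRNA escaped it was not tested.

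The 3' ends of the annotated transcripts show which form each member has, and the ends that matter for the results are printed here 5' to 3', with the stem-loop or the poly(A) signal in capitals. They come from the GENCODE M21 transcripts. Hist1h2ap, the member with most UMIs in cycling cells, and Hist2h2aa1 end just past the stem-loop, while Hist1h1c and Hist3h2a carry a stem-loop inside the transcript and a poly(A) signal near its end.
Hist1h2ap stem-loop: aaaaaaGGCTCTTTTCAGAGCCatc
Hist2h2aa1 stem-loop: taaaaaGGCTCTTTTCAGAGCCacccac
Hist1h1c stem-loop: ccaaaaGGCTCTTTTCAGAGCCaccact
Hist1h1c poly(A) signal: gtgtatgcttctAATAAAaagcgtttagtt
Hist3h2a stem-loop: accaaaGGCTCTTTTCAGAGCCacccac
Hist3h2a poly(A) signal: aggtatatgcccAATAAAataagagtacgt
Hist1h4i stem-loop: cttaaaGGCCCTTTTTAGGGCCaccaca
The stem-loops of the 3 H2A genes and of Hist1h1c have the same letters, and that of the H4 gene Hist1h4i differs from them.

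Over all members, the pattern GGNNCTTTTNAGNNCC (N is any base, gene strand only) was found in 44, and in 22 of these it lay in the last 100 bases of a transcript. Among 58737 protein-coding transcripts of the annotation, 22 (0.0375%) had it in that window. The poly(A) signal AATAAA lay in the last 100 bases for 16 members, against 42.5% of those transcripts. No stem-loop pattern within these letters says only that the annotated transcript does not hold them: Hist1h1b, for example, is annotated as 743 bases without it. Spliced transcripts were annotated for 5 members, all H2B: Hist1h2bc, Hist1h2be, Hist1h2bp, Hist1h2bq and Hist1h2br.

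Members also share promoter letters and arrangement. RefSeq promoters (GRCm38.p6) were matched for 60 members by position, and the 250 bases before each start were searched. CCAAT on either strand, a box bound by the factor NF-Y, was in 49 of them, against 33.8% of 32851 windows of all genes, and TATAAA on the gene strand was in 22, against 7.59%. In 14 pairs, the GENCODE starts of neighbouring members on opposite strands lay 173 to 660 bases apart. One such pair, Hist1h2ac and Hist1h2bc, is shown because its genes had unlike levels outside cycling cells (given further on). The 239 bases from the RefSeq start of Hist1h2ac to the GENCODE start of Hist1h2bc (GRCm38.p6), chr13:23683960-23684198, are printed on the minus strand, that of Hist1h2ac, with CCAAT, its reverse complement ATTGG and TATAAA in capitals.
Hist1h2ac to Hist1h2bc: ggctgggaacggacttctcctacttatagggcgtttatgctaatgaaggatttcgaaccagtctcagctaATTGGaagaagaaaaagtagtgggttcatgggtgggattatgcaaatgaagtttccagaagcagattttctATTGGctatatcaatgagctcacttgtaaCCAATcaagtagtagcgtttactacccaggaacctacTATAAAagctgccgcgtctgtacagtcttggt
The window holds 1 CCAAT and 1 TATAAA on the strand of Hist1h2ac, and 2 CCAAT on that of Hist1h2bc.

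Cells were grouped by genes outside the clusters. S-marked cells (525) were in the top 10% for Pcna, Mcm5 and Mcm6, the replication clamp and 2 subunits of the replicative helicase, and not in the top 10% for Mki67 and Top2a, which mark late S phase to mitosis. Cells in both top 10% groups (581) are called S and G2M cells, and those in the top 10% for Mki67 and Top2a alone (525) G2M-marked. Non-cycling cells (5023) had no UMI of Mki67 or Top2a and a Pcna, Mcm5 and Mcm6 sum at or under the median. They were split into 80 goblet-marked cells (top 2% for Muc2, Fcgbp and Spink4, goblet cell secretory genes), 3230 Fabp1-high cells (at or above the median of the enterocyte fatty acid binding protein) and 1713 Fabp1-low cells. The other 4399 cells lay between. These groups are ranges of scores, not cell types: 342 cells lay within 10% of the threshold for Pcna, Mcm5 and Mcm6, 84 within 10% of that for Mki67 and Top2a, and 462 within 10% of that for Fabp1.

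Marker lists were read in the same groups. Enterocyte markers summed to 645 UMIs per 10000 in Fabp1-high cells and 49.1 in S and G2M cells, goblet markers to 56.4 in goblet-marked non-cycling cells and 0.295 in Fabp1-high cells, and stem markers (Olfm4, Lgr5, Ascl2, Smoc2) to 1.65 in S and G2M cells and 0.0058 in Fabp1-high cells. Goblet-marked non-cycling cells also held enteroendocrine (1.67) and Paneth (4.10) markers, and goblet-marked cells in cycling groups held Paneth markers at 21.6. Fabp1-low cells held enteroendocrine markers at 0.626 and erythroid markers at 0.571, against 0.0703 and 0.0430 in Fabp1-high cells. The part of such cells or RNA in the histone levels of these groups was not tested. Mesenchymal markers (Col3a1, Col1a1, Col1a2, Dcn) summed to 0.427 in S and G2M cells and 0.0065 in Fabp1-high cells, and 3 immune markers to 0.0753 and 0.00034, so the S and G2M group holds some cells or RNA of other types, whose part in the histone levels was not tested.

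Histone transcripts were concentrated in cells with both replication and mitosis genes. Summed over the 69 members, S and G2M cells held 78.1 histone UMIs per 10000 (77.6 to 78.5; set 0 88.2, set 1 67.2), G2M-marked cells 45.0 (set 0 51.9, set 1 35.4) and S-marked cells 8.14 (set 0 10.4, set 1 6.23). Fabp1-high cells held 4.90 (4.86 to 4.95; set 0 5.63, set 1 3.84), Fabp1-low cells 5.87 and goblet-marked non-cycling cells 5.81. Cells with Pcna, Mcm5 and Mcm6 high but Mki67 and Top2a not were thus far nearer the non-cycling cells than the S and G2M cells, in both sets. The ratio to Fabp1-high cells was 15.9-fold for S and G2M cells (log2 3.99, 3.98 to 4.01), 9.18-fold for G2M-marked cells (log2 3.20, 3.18 to 3.22) and 1.66-fold for S-marked cells (log2 0.73, 0.70 to 0.77). Without Hist1h2bc, the member that dominated outside cycling, these ratios became 34.6-fold, 19.2-fold and 2.81-fold. The threshold for a cycling group set 2 of these values: with the top 5% of cells the log2 ratio of S-marked cells was 2.85 and with the top 20% it was 0.054, and that of G2M-marked cells was 4.03 and 1.78.

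Single cells of a group were far from uniform. Among S and G2M cells the median cell held 79.7 histone UMIs per 10000 of its own UMIs, with quartiles of 28.9 and 116. G2M-marked cells had a median of 20.8 with quartiles of 7.98 and 75.4, so that its upper quartile lay near the median of S and G2M cells and its lower quartile between the quartiles of S-marked cells (3.44 and 8.53). Fabp1-high cells kept to a narrow range, with a median of 4.44 and a 90th percentile of 8.25. In each of these groups the median of set 0 was above that of set 1.

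**Figure D1:**
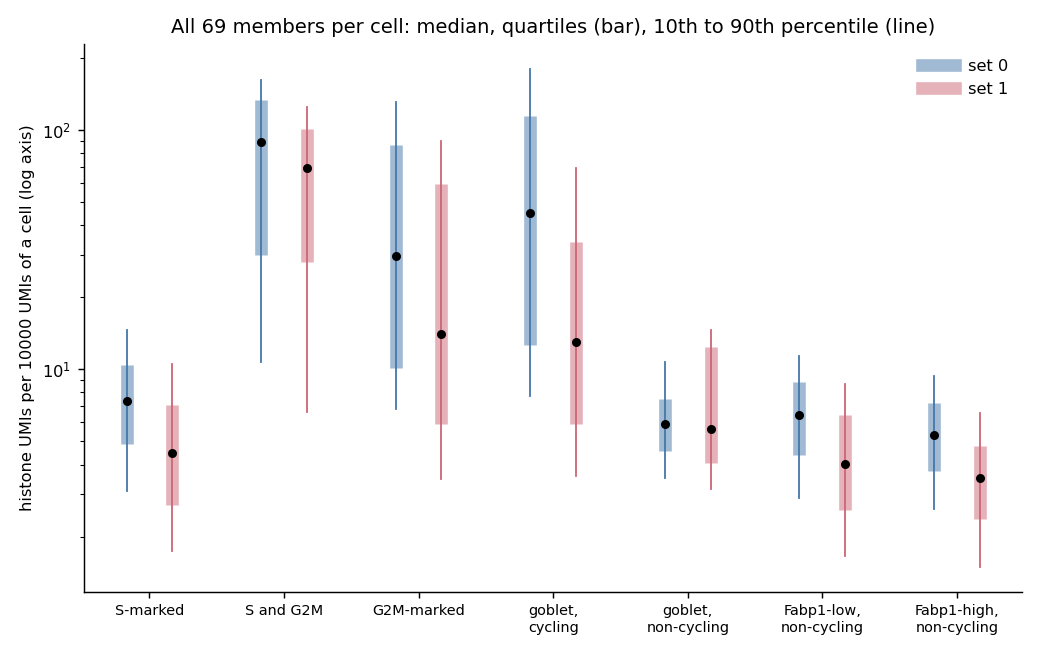
Histone UMIs of all 69 members per 10000 UMIs of a cell (log axis) by row group and barcode set; black points are medians over cells, thick bars quartiles and thin lines the 10th to 90th percentile. G2M-marked cells span from the level of S-marked cells to that of S and G2M cells, and set 0 has the higher median in every group shown.

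Most members shared this pattern. At least 2-fold above Fabp1-high cells were 59 of the 63 members at 0.02 or more in either group for S and G2M cells (26.4% of all genes measured were), 56 of 62 for G2M-marked cells (background 21.7%) and 38 of 45 for S-marked cells (background 20.1%). The median log2 ratio of those members was 4.96, 4.27 and 2.08, against 0.23, 0.25 and 0.23 over all genes measured. A member that enters only through its level in cycling cells had to differ, so these counts and medians describe the members and show no more. At least 2-fold below Fabp1-high cells were Hist2h2aa1 and Hist2h2aa2 alone, in each of the 3 cycling groups (background 15.1% for S and G2M, 9.29% for G2M-marked and 7.41% for S-marked cells). In S and G2M and in G2M-marked cells that direction turns once the overlapping gene Gm20634 is added, as described for H2A. Between the 2 groups with Mki67 and Top2a high, 10 of 64 members were at least 2-fold higher in S and G2M cells than in G2M-marked cells (background 2.73%), among them the linker genes Hist1h1b and Hist1h1a, and none was 2-fold lower (background 2.65%).

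**Figure D2:**
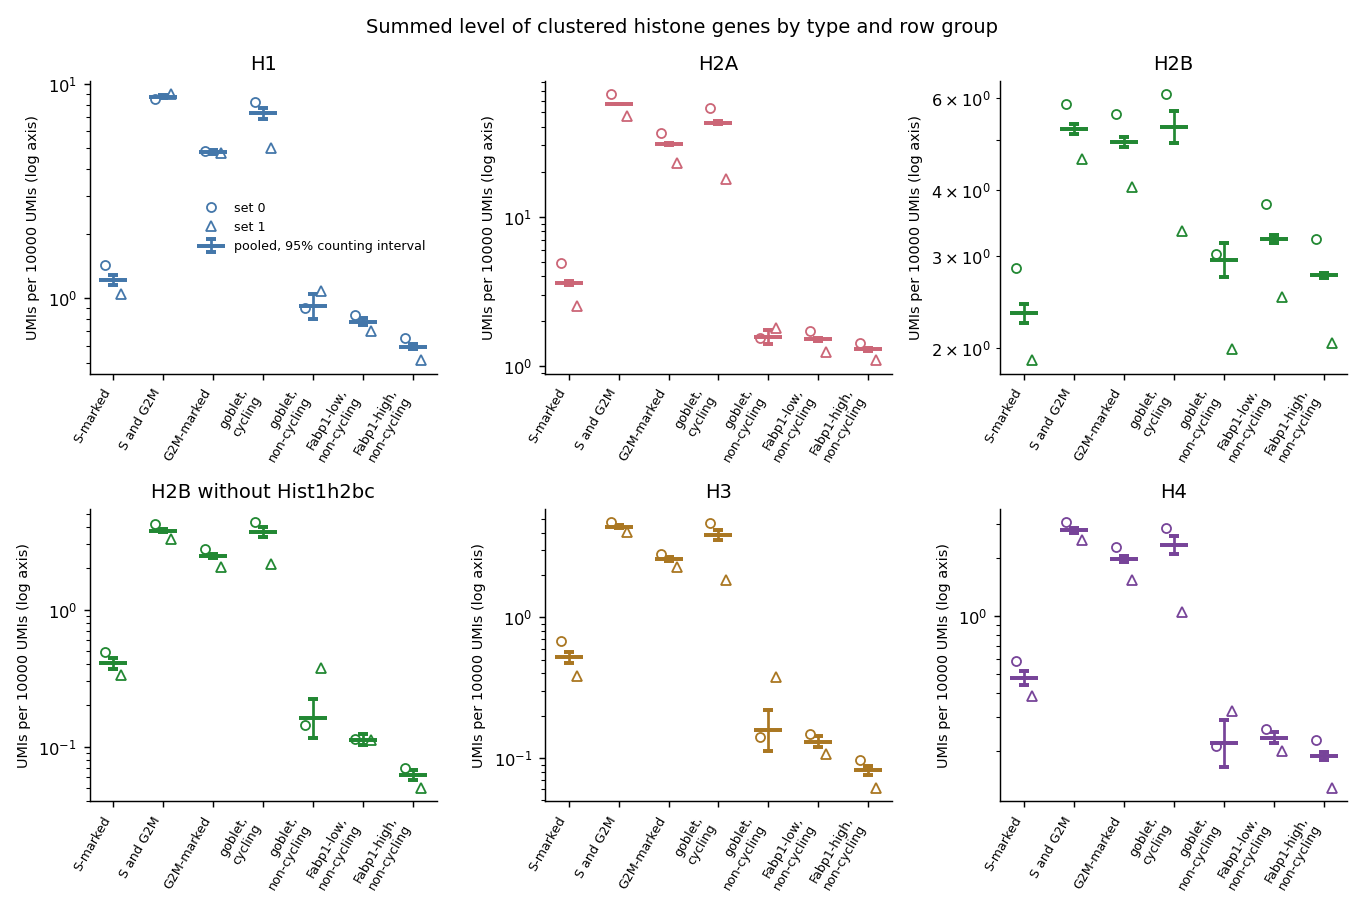
Summed level of each histone type in UMIs per 10000 UMIs (log axes) by row group; horizontal marks are the pooled cells with 95% counting intervals, circles set 0 and triangles set 1. H1, H2A, H3, H4 and H2B without Hist1h2bc are highest in S and G2M cells or cycling goblet-marked cells, while H2B with Hist1h2bc varies less between groups.

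Many of these UMIs could not be given to a single gene, which limits what can be said of single members. The counting tool splits a UMI among genes that its reads fit equally, and such splits show as fractions of a UMI. Summed over the genes of a type, the UMIs of a cell were whole within 0.01 in 99.8% of cells with a value for H1, 99.1% for H2B, 94.5% for H3 and 99.1% for H4, so splits mostly stayed inside the type. For H2A the share was 30.8%. It was 84.7% when 2 genes named outside the member list were added. They were H2afx, the DNA damage-associated H2A variant, and Gm20634, a noncoding gene that overlaps Hist2h2aa1 and the H3 member Hist2h3c1 on the same strand. Type sums are therefore firmer than members, and H2A is the least firm. For a single member, whole UMIs are those in cells where its value was whole, so a single split UMI makes that cell's value not whole. The share tends to fall as a member's UMIs per cell rise, and it does not give the share of UMIs that were split. The strand setting of the counting is not given in the sources used here, and 22 members overlap a gene on the other strand, mostly small RNA genes.

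H1 genes, for the linker histone, differed between groups in make-up as well as in amount. The type stood at 8.70 UMIs per 10000 in S and G2M cells (set 0 8.48, set 1 8.93), 4.81 in G2M-marked, 1.22 in S-marked and 0.594 in Fabp1-high cells (set 0 0.649, set 1 0.512). Hist1h1b led in S and G2M cells with 38.1% of H1 UMIs, and stood there at 3.31 (set 0 3.32, set 1 3.31) against 0.0178 in all non-cycling cells (set 0 0.0178, set 1 0.0180). All its UMIs were whole, and its level outside cycling was 0.538% of that in S and G2M cells. For scale, the stem cell gene Olfm4 stood at 0.541% of its S and G2M level in the same non-cycling cells, and the goblet markers in Fabp1-high cells at 0.524% of their level in non-cycling goblet-marked cells. How much of such a level is free RNA carried into droplets was not tested.

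Hist1h1c, the gene of H1.2, led outside cycling with 58.4% of H1 UMIs there. It stood at 0.383 in all non-cycling cells (0.372 to 0.393; set 0 0.439, set 1 0.300) and 0.879 in S and G2M cells (set 0 0.827, set 1 0.935), and was lower in S-marked cells (0.269) than in either. Its non-cycling level was thus 43.5% of that in S and G2M cells. Hist1h1e, the gene of H1.4, stood at 0.211 outside cycling (set 0 0.206, set 1 0.217) and 2.85 in S and G2M cells (set 0 2.75, set 1 2.95), so the sets lay close in both. Hist1h1d, the gene of H1.3, stood at 0.0398 outside cycling (set 0 0.0428, set 1 0.0354) and 1.20 in S and G2M cells. It was 2-fold or more higher in Fabp1-low (0.0700) than in Fabp1-high cells (0.0250), as was 1 other of 23 members measured, Hist3h2ba (background 5.86%), and none was 2-fold or more lower (background 2.39%). Hist3h2ba entered only through its level in Fabp1-low cells and so had to differ. Over 93% of the UMIs of these 3 genes were whole outside cycling (Hist1h1c 97.5%, Hist1h1e 95.9%, Hist1h1d 93.1%), and 55.2%, 50.8% and 57.1% in S and G2M cells. Hist1h1a (0.459 in S and G2M cells, 0.0046 outside cycling) had whole UMIs only, and Hist1h1t, a testis gene, was under the minimum.

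H2A genes made up 72.9% of histone UMIs in S and G2M cells and 26.1% outside cycling. The type stood at 56.9 UMIs per 10000 in S and G2M cells (set 0 66.0, set 1 47.2), 30.7 in G2M-marked, 3.60 in S-marked and 1.29 in Fabp1-high cells (set 0 1.42, set 1 1.09). With Gm20634 and H2afx added, S and G2M cells were 34.7-fold above Fabp1-high cells in place of 44.2-fold. Hist1h2ap alone stood at 28.6 in S and G2M cells (set 0 30.3, set 1 26.8) and its near copy Hist1h2ao at 11.8 (set 0 17.2, set 1 6.02). Annotated transcripts of the pair match at 94.2% of the bases of the shorter. Only 2.67% and 2.40% of the UMIs of these genes in these cells were whole, so their sum, 40.4 (set 0 47.5, set 1 32.8), is read as well. The sum is not firm either, since 11.6% of the cell sums of the pair were whole, against 30.8% for all H2A. Hist1h2ap also matches Hist1h2ae at 94.8%. The sum of the pair outside cycling was 0.175, 0.433% of its S and G2M level. This was the lowest ratio of any pair or type summed here, and it carries the same limit. Hist1h2ae followed with 6.08 (set 0 6.71, set 1 5.39), Hist1h2ag with 2.45, Hist1h2ab with 2.25 and Hist1h2ac with 1.29.

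Outside cycling, H2A UMIs were spread thinly over many members. Hist1h2ap (0.0878), Hist1h2ao (0.0871), Hist1h2ag (0.0798), Hist1h2ae (0.0731), Hist1h2ad (0.0293) and Hist1h2ab (0.0310) passed the presence rule given further on, yet 3.16% to 32.8% of their UMIs were whole there. Their presence one by one in non-cycling cells is uncertain, since equal splits of a UMI lift many near-identical genes together. Hist1h2ac, at 0.109 outside cycling (set 0 0.122, set 1 0.0894), had 30.7% of its UMIs whole, and its partner across the printed window, Hist1h2bc, stood at 2.82. In S and G2M cells the levels of that pair were 1.29 and 1.50.

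Hist3h2a was the H2A member with an assignable level outside cycling. It lies apart from the large cluster, on chromosome 11 (chr11:58954685-58956830, plus strand), and its annotated transcript runs 1643 bases past the stem-loop to the poly(A) signal printed above. Its level was 0.200 in all non-cycling cells (0.192 to 0.208; set 0 0.197, set 1 0.204) and 0.216 in S and G2M cells (set 0 0.192, set 1 0.241), with 96.9% and 78.3% of UMIs whole. G2M-marked cells had the most, 0.355 (set 0 0.372, set 1 0.331), in both sets. The gene lies wholly inside Trim17 on the same strand, a ubiquitin ligase gene, so UMIs of the 2 may be mixed, and this was not tested.

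By their own UMIs, Hist2h2aa1 and Hist2h2aa2 ran opposite to nearly all other H2A members, but not in S and G2M or G2M-marked cells once Gm20634 is counted. The shorter of the 2 annotated transcripts is identical to the other over its whole length, so only their sum is read. It was 0.534 in Fabp1-high cells (set 0 0.572, set 1 0.478) and 0.0455 in S and G2M cells (set 0 0.0452, set 1 0.0459), 11.7-fold lower. Gm20634 (chr3:96245554-96248509) overlaps Hist2h2aa1 by 529 bases and the H3 member Hist2h3c1 over all its 1825 bases. Gm20634 stood at 0.373 in Fabp1-high and 2.56 in S and G2M cells. The 3 genes together held 0.907 in Fabp1-high cells (set 0 0.979, set 1 0.800) and 2.61 in S and G2M cells (set 0 2.36, set 1 2.87), 2.88-fold higher. The share of cell sums that were whole was 18.6% for the pair and 58.0% with Gm20634. In G2M-marked cells the pair stood at 0.0834 and the 3 genes at 1.66, and in S-marked cells at 0.182 and 0.477. The direction in S and G2M and in G2M-marked cells thus turns once Gm20634 is added to the pair. All UMIs of Gm20634 were added, shared or not, and how many of them belong to the pair, to Hist2h3c1 or to Gm20634 itself was not tested.

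**Figure D3:**
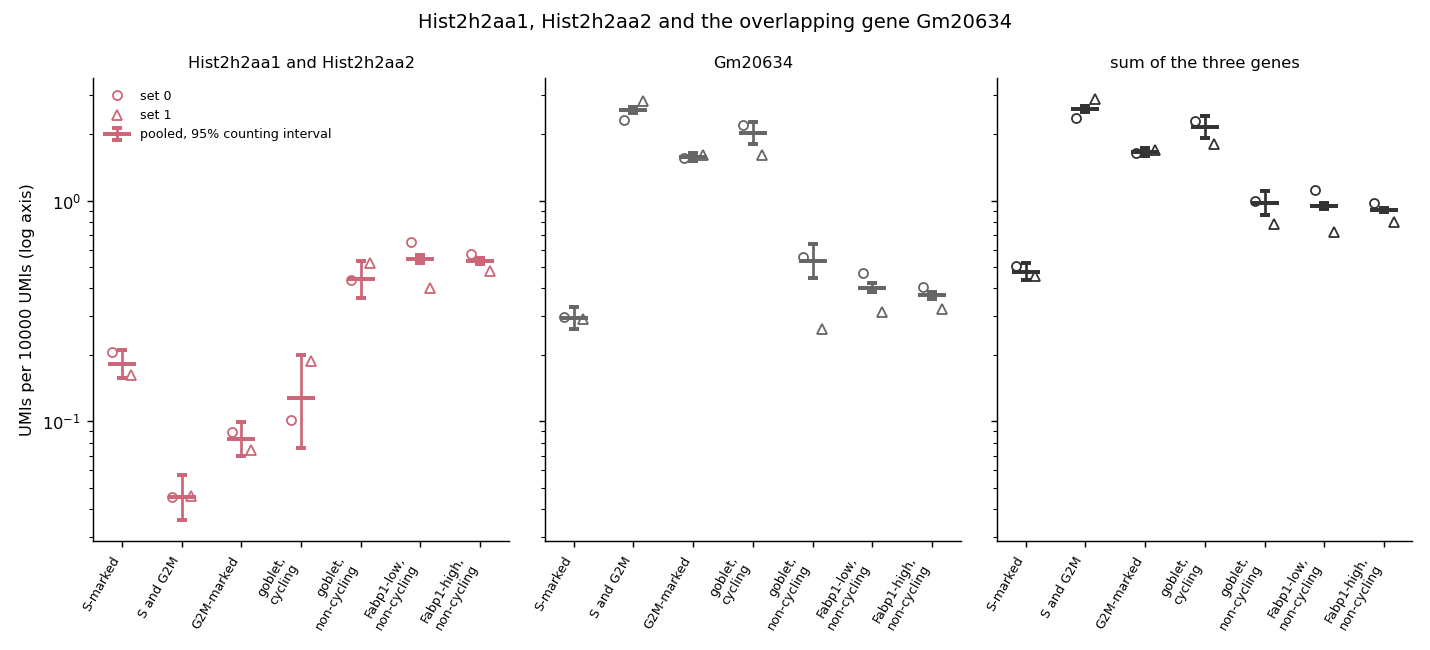
Levels in UMIs per 10000 UMIs (log axis) of Hist2h2aa1 plus Hist2h2aa2, of Gm20634 and of the sum of the 3 genes by row group; marks are pooled cells with 95% counting intervals, circles set 0 and triangles set 1. The pair is lowest in S and G2M cells, whereas the sum of the 3 is highest there. Once all UMIs of Gm20634 are added, S and G2M and G2M-marked cells lie above Fabp1-high cells, while S-marked cells stay below them.

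H2B was led by a single gene outside cycling. The type stood at 2.75 UMIs per 10000 in Fabp1-high cells (set 0 3.23, set 1 2.05), of which 97.8% came from Hist1h2bc. In S and G2M cells it was 5.25 (set 0 5.86, set 1 4.60), and Hist1h2bc gave 28.6%. The other 18 H2B members together stood at 3.75 in S and G2M cells (set 0 4.20, set 1 3.27) and 0.0617 in Fabp1-high cells (set 0 0.0699, set 1 0.0497). That is a ratio of 60.7-fold, beside 44.2-fold for H2A and 53.6-fold for H3. Cell sums of these 18 were whole in 66.2% of cells with a value, against 99.1% for all H2B. Their sum is thus less firm than that of the type, and sums of all members without Hist1h2bc share this limit. Hist1h2bj (0.640), Hist1h2bk (0.435) and Hist1h2bb (0.337) were the next members in S and G2M cells, and each was under 0.0071 outside cycling.

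Hist1h2bc ran against the cycling pattern. Its level was 2.82 in all non-cycling cells (2.79 to 2.85, from 36534 UMIs; set 0 3.30, set 1 2.12), 2.49 in G2M-marked cells (set 0 2.83, set 1 2.01), 1.92 in S-marked cells (set 0 2.36, set 1 1.56) and 1.50 in S and G2M cells (set 0 1.66, set 1 1.33). In both sets the S and G2M cells were lowest and set 0 was above set 1 in each group. Fabp1-high cells were 1.79-fold above S and G2M cells (log2 of the reverse ratio -0.84, -0.90 to -0.78). Once thinned to 8000 UMIs, 78.0% of non-cycling cells and 56.7% of S and G2M cells had at least 1 UMI of the gene, and the part of free RNA in these shares was not tested. Its UMIs lay in whole cell values at 97.7% outside cycling and 22.0% in S and G2M cells, so the level in cycling cells is the less certain. How many of its UMIs there could equally be given to other H2B genes was not tested.

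The annotated Hist1h2bc transcript is spliced, unlike that of a typical clustered gene. Its first exon is chr13:23684199-23684621 and its second chr13:23692176-23692908, both on the plus strand, and it holds no stem-loop pattern. With reads near the 3' end, UMIs of a spliced form would lie in the second exon, but the table does not keep read positions, and which form was counted was not tested.

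H3 genes were scarce outside cycling cells. The type stood at 4.40 UMIs per 10000 in S and G2M cells (set 0 4.75, set 1 4.03), 2.58 in G2M-marked, 0.520 in S-marked and 0.0821 in Fabp1-high cells (set 0 0.0962, set 1 0.0612), a 53.6-fold ratio of S and G2M to Fabp1-high cells. After thinning, 83.6% of S and G2M cells and 5.89% of Fabp1-high cells had an H3 UMI (93.1% and 19.2% before thinning, at median depths of 22842 and 24538 UMIs). Hist1h3c led in S and G2M cells at 0.998 (set 0 1.15, set 1 0.838), with Hist1h3e at 0.816 and Hist1h3i at 0.581. Hist2h3c1, under the minimum in every group, lies wholly inside Gm20634 on the same strand, and whether its UMIs were given to that gene was not tested. No H3 member passed the presence rule outside cycling. Hist1h3e came nearest, at 0.0246 (set 0 0.0285, set 1 0.0188).

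H4 genes were the lowest type in S and G2M cells at 2.80 (set 0 3.08, set 1 2.49), with 1.98 in G2M-marked, 0.479 in S-marked and 0.188 in Fabp1-high cells (set 0 0.228, set 1 0.129). Hist1h4i led in S and G2M cells and outside cycling, and was the only H4 gene present outside cycling, at 0.0782 (0.0735 to 0.0832; set 0 0.0888, set 1 0.0627) against 1.01 in S and G2M cells (set 0 1.02, set 1 1.01). Its annotated transcript runs 330 bases past the stem-loop, and 90.7% of its UMIs were whole outside cycling. Hist1h4d stood at 0.702 in S and G2M cells (set 0 0.880, set 1 0.511) and 0.0312 outside cycling, where it missed the rule in set 1 (set 0 0.0409, set 1 0.0168). Hist1h4n, the third by UMIs in S and G2M cells, stood at 0.264 there and 0.0153 outside cycling.

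Members present outside cycling were those with a lower 95% limit of at least 0.02 UMIs per 10000 in all non-cycling cells and a level of at least 0.02 in each set. They were 15 of 69: 3 H1 genes, 10 H2A genes, Hist1h2bc, Hist1h4i and no H3 gene. By the same rule 40.1% of all genes were present, and 81.4% of the genes that, like 64 members, reached the minimum in a row group, and both shares are above that of the members. Lower in S and G2M cells than outside cycling were 3 of the 15, Hist1h2bc and the Hist2h2aa1 and Hist2h2aa2 pair, of which the pair turns with Gm20634. Hist1h2aj, which missed the rule, was also lower in S and G2M cells (0.0142) than outside cycling (0.0212), with almost no whole UMIs in either. Just inside the rule by level were Hist1h2ad (0.0293) and Hist1h2ab (0.0310), and just outside it Hist1h4d (0.0312), Hist1h2ah (0.0270), Hist1h2ai (0.0254) and Hist1h3e (0.0246), which were all under 0.02 in set 1.

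**Figure D4:**
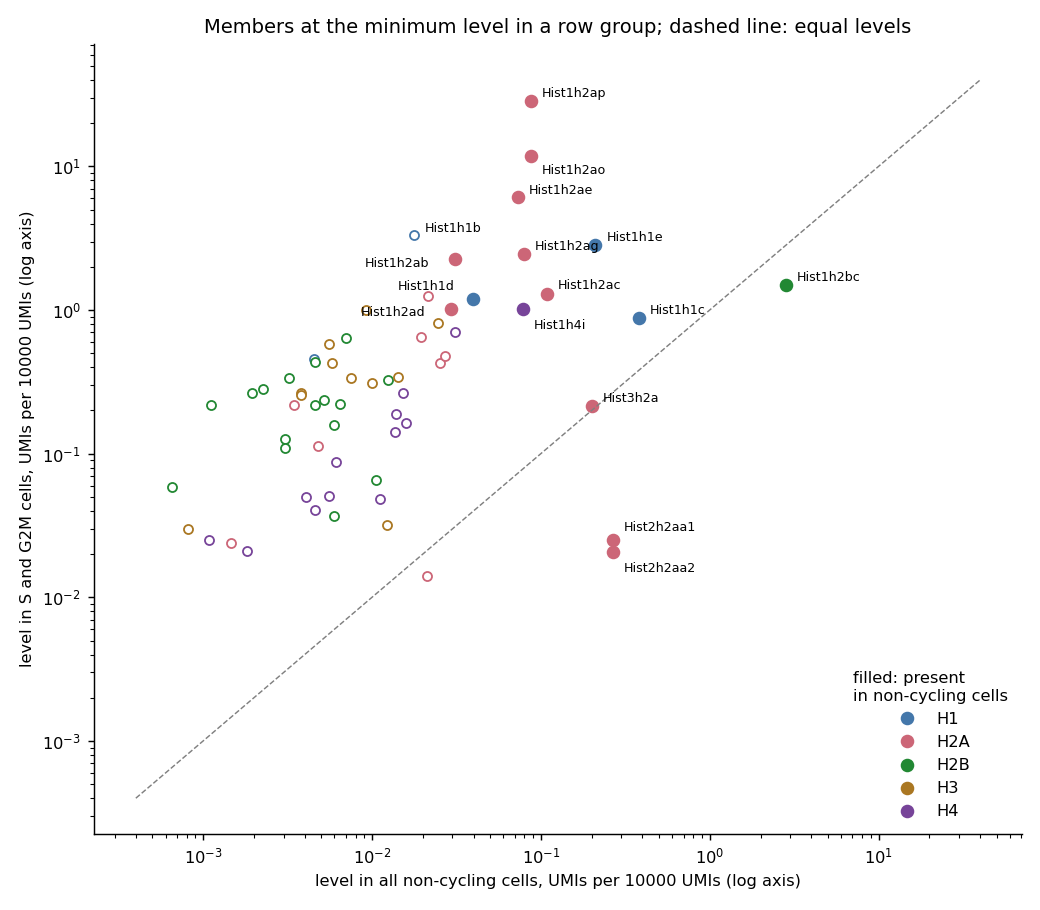
Level of each member in all non-cycling cells (x, log axis) and in S and G2M cells (y, log axis), in UMIs per 10000 UMIs, coloured by type and filled where the member was present in non-cycling cells; the dashed line marks equal levels. Hist1h2bc lies below the line at 2.82 and 1.50, Hist3h2a near it, and Hist2h2aa1 and Hist2h2aa2 lie below it with Gm20634 not counted.

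The present members differed in how their annotated transcripts end. Of the 15 present members, 6 had at least 90% of their non-cycling UMIs in whole values: Hist1h1c, Hist1h1d, Hist1h1e, Hist3h2a, Hist1h4i and Hist1h2bc. Hist1h2bc is spliced, and the other 5 are among 21 unspliced members whose transcripts run on past the stem-loop. Of the 21 unspliced members that end within 100 bases of it, 7 were present, all H2A genes, and 0 of the 7 had mostly whole UMIs. None of the 22 unspliced members without the pattern was present. This grouping was chosen after the values were seen, and it is a description of the annotation with no test.

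Members differed widely in how much of their S and G2M level remained outside cycling. The non-cycling level as a percent of the S and G2M level ran from 0.538% (Hist1h1b) to 43.5% (Hist1h1c) among H1 genes, from 0.928% (Hist1h3c) to 38.2% (Hist2h3c2) among H3 genes and from 4.34% (Hist2h4) to 22.9% (Hist4h4) among H4 genes. Some of these ends rest on scarce members and are less exact: outside cycling and in S and G2M cells, Hist2h3c2 stood at 0.0123 and 0.0321, Hist2h4 at 0.0011 and 0.0249, and Hist4h4 at 0.0111 and 0.0485. The median was 3.33% for H1, 2.22% for H3 and 8.14% for H4. The 6 G2M markers summed to 3.03% in the same cells, where Mki67 and Top2a are 0 by the rule and Ube2c stood at 7.52%. The H3 median thus lay beside Birc5 (2.38%) and Cdk1 (2.18%), mitotic genes, while Hist1h1c, Hist3h2a (92.6%) and Hist1h2bc (188%) lay far above them.

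Among cells with Mki67 and Top2a in the top 10%, histone levels followed both scores. Over 5 bins of equal cell number, ordered by the Mki67 and Top2a sum, all members without Hist1h2bc stood at 16.6, 37.0, 61.5, 80.4 and 109 UMIs per 10000, and in each bin set 0 was above set 1 (20.3 and 11.6 in the lowest, 119 and 98.4 in the highest). Over 5 bins of the Pcna, Mcm5 and Mcm6 sum in the same cells they stood at 34.8, 43.7, 61.7, 78.6 and 83.6. Hist1h2bc went the other way over both, from 2.43 to 1.55 and from 2.81 to 1.20. Hist3h2a differed between the scores: it stood at 0.230 and 0.339 in the lowest and highest bins for Mki67 and Top2a, and at 0.394 and 0.152 for Pcna, Mcm5 and Mcm6, in the same order in both sets. Median depth was 18450 to 27345 UMIs over the former bins and 20966 to 28840 over the latter.

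**Figure D5:**
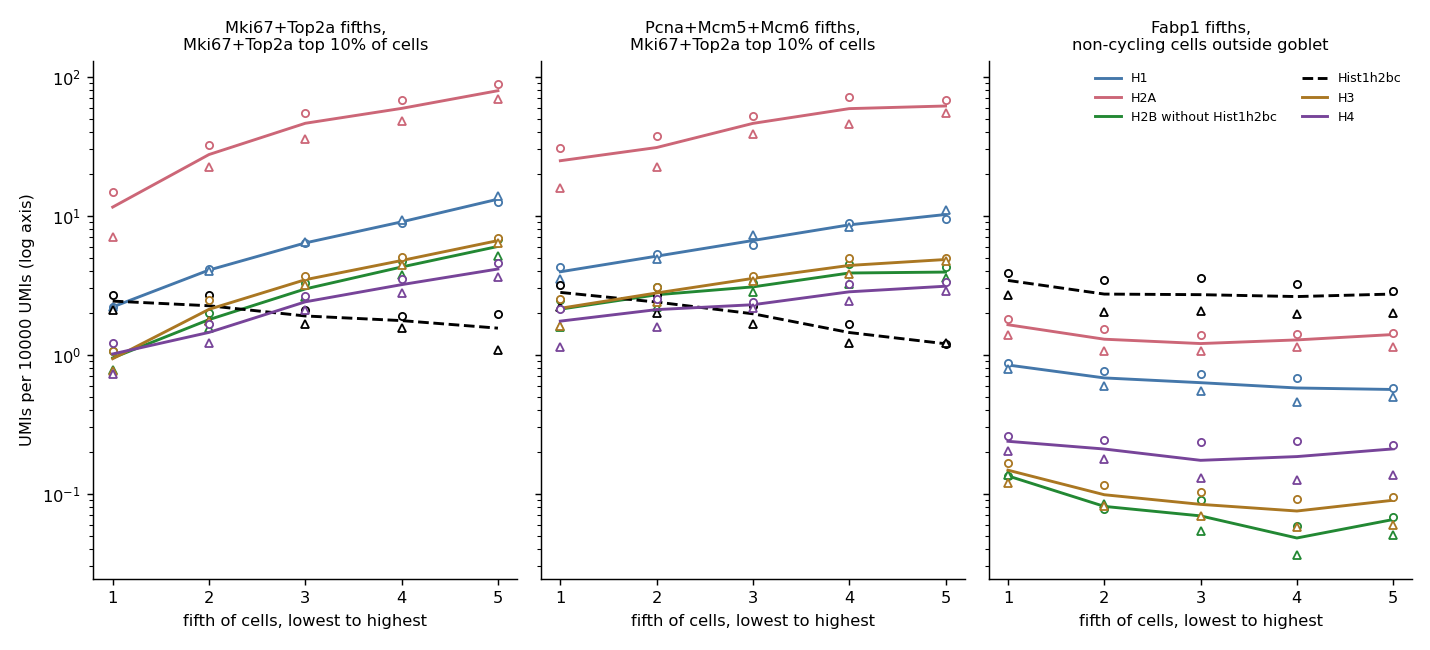
Levels by type in UMIs per 10000 UMIs (log axis) over 5 bins of cells ordered by Mki67 plus Top2a, by Pcna plus Mcm5 plus Mcm6 (both within the cells in the top 10% for Mki67 and Top2a) and by Fabp1 (non-cycling cells without the goblet-marked); lines are pooled cells, circles set 0 and triangles set 1. The types climb over the cycling scores while Hist1h2bc (dashed) declines, and over Fabp1 the lowest bin is highest.

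Without Mki67 and Top2a, the summed histone level without Hist1h2bc differed little along Pcna, Mcm5 and Mcm6, while H3 differed more. In cells with no UMI of Mki67 or Top2a, all members without Hist1h2bc stood at 2.41 where the Pcna, Mcm5 and Mcm6 sum was lowest and 2.71 in its top bin, with H3 at 0.098 and 0.156. Over 5 bins of Fabp1 in non-cycling cells, the lowest bin had the most H1, H2A, H3 and H4. All members without Hist1h2bc stood at 3.01 there and between 2.16 and 2.36 in the other 4, Hist1h2bc at 3.42 and between 2.62 and 2.73, and H1 at 0.844, declining to 0.563 in the highest. Hist1h1e stood at 0.300 in the lowest and 0.164 in the highest bin, while Hist1h1c stood at 0.427 and 0.359.

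Goblet-marked cells, too, held far more histone transcript in the cycling groups. Non-cycling goblet-marked cells (68 of set 0 and 12 of set 1) held 5.81 histone UMIs per 10000, 1.18-fold the level of Fabp1-high cells (log2 0.24, 0.17 to 0.32), and the 70 goblet-marked cells in cycling groups held 61.4, with 74.98 in the 42 of set 0 and 29.1 in the 28 of set 1. The non-cycling ratio was small and uneven between sets (log2 0.052 in set 0 and 0.53 in set 1, whose 12 cells had a median of 10335 UMIs), and was 0.42 after thinning. At least 2-fold above Fabp1-high cells were 8 of 24 members measured (background 12.2%), and none was 2-fold below (background 2.07%). They included Hist1h1e (0.373), Hist1h1d (0.0895), Hist1h2ac (0.195) and Hist3h2ba (0.0333), an H2B gene of chromosome 11 that stood at 0.0042 in Fabp1-high cells. A member that enters only through its level in goblet-marked cells, such as Hist3h2ba, had to differ, and that level rests on few UMIs. The count of 8 thus describes the members and shows no more. Hist1h2bc stood at 2.79 (set 0 2.88, set 1 1.61) and Hist1h1c at 0.433. Non-cycling goblet-marked cells held 0.696 UMIs per 10000 of the 6 S markers, against 0.593 in Fabp1-high cells, and the part of these in the histone difference was not tested. In cycling over non-cycling goblet-marked cells, 56 of 61 members were at least 2-fold higher (background 23.8%), and Hist2h2aa1 and Hist2h2aa2 were lower (background 14.2%), with Gm20634 not counted.

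Most replacement histones were also higher in S and G2M cells, with a lower median ratio than the clustered genes. Of 15 on the list, 11 are columns of the table, and 10 of the 11 were at least 2-fold higher in S and G2M than in Fabp1-high cells, 9 of 11 in G2M-marked and 6 of 11 in S-marked cells (background 26.4%, 21.7% and 20.1%), with none 2-fold lower (background 15.1%, 9.29% and 7.41%). Their median log2 ratios were 1.44, 1.55 and 1.18. H2afz, the gene of H2A.Z, stood at 23.5 in S and G2M and 4.53 in Fabp1-high cells, and the H3.3 genes at 13.0 and 5.83 (H3f3a) and 17.8 and 6.71 (H3f3b). H2afj, an H2A variant, was the one under 2-fold, at 5.12 and 3.51. Above the 15.9-fold of the clustered total were 4 of the 11: H2afx (3.75 and 0.164), the centromeric H3 gene Cenpa (0.756 and 0.0185), the H1 variant gene H1fx (0.260 and 0.0060) and the macroH2A gene H2afy2 (0.0823 and 0.00068), the last from few UMIs in Fabp1-high cells. Hist1h2bc lowers that total: its log2 ratio was 3.99 with the gene and 5.11 without it. H2afx did not reach the latter, while Cenpa, H1fx and H2afy2 stayed above it. UMIs of H2afx may also be shared with clustered H2A genes. Outside cycling, single replacement genes were above whole clustered types: H3f3a and H3f3b stood at 6.40 and 7.19 in all non-cycling cells, and the 12 clustered H3 genes together at 0.0983. Capture by poly(A) tail favours the former, and levels of different genes are not per length here, so that gap is one of captured transcripts.

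Genes that act on histone mRNAs and carry new histones to DNA were high in the same cells. Of 35 on the list, 33 were measured for S and G2M over Fabp1-high cells, and 27 were at least 2-fold higher, as were 23 of 33 in S-marked and 19 of 32 in G2M-marked cells (background 26.4%, 20.1% and 21.7%), with none 2-fold lower (background 15.1%, 7.41% and 9.29%). Slbp, the stem-loop binding protein, stood at 1.39 in S and G2M, 0.706 in S-marked, 0.487 in G2M-marked and 0.293 in Fabp1-high cells. The H3-H4 chaperone Nasp stood at 2.28, 1.15, 1.11 and 0.160 in that order, and the chromatin assembly factor subunit Chaf1b at 0.583, 0.247, 0.160 and 0.0191. Cyclin E (Ccne1), which drives S phase entry, stood at 0.629, 0.251, 0.0566 and 0.0179. S-marked cells thus held 2.40-fold the Slbp level of Fabp1-high cells and 1.66-fold its histone level, and G2M-marked cells 1.66-fold and 9.18-fold. Npat, the activator of histone gene transcription, varied less, at 0.126 in S and G2M and 0.0498 in Fabp1-high cells.

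Outside the goblet-marked cells, the summed level of all members had the same order of row groups in both sets: S and G2M, G2M-marked, S-marked, Fabp1-low and Fabp1-high cells. The place of goblet-marked cells differed. Those in cycling groups were above G2M-marked cells in set 0 (74.98 and 51.9) and below them in set 1 (29.1 and 35.4), and non-cycling ones were below Fabp1-low cells in set 0 (5.83 and 6.71) and above them in set 1 (5.55 and 4.74). Of the 64 members at the minimum, 50 were higher in set 0 than in set 1 in S and G2M cells and 57 in all non-cycling cells. The share of all genes that were higher in set 0 was not computed. These counts therefore describe the members and do not show a difference particular to histone genes. The exceptions in S and G2M cells included the H1 genes Hist1h1c, Hist1h1d and Hist1h1e. Median depth was 23657 UMIs per cell in set 0 and 22375 in set 1, and S-marked cells were 3.91% of set 0 (3.43 to 4.44) and 5.72% of set 1 (5.10 to 6.39). Whether these differences belong to genotype, library or embryo pool cannot be told apart, since no label names the sets.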

How the data were processed

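The deposited table, made by the authors, holds a signal scaled to 10000 in every one of 11871 cells; Salmon 0.14.1 with alevin, Scanpy 1.6.0 and GRCm38 (mm10) are named per the submitters' processing notes, and for the strand setting and cell filters nothing is stated (not given in the sources used here). The value of 1 UMI in a cell was taken as its most frequent non-zero value, after which a median of 94.8% (lowest 84.0%) of a cell's values were whole within 0.01. UMIs were summed per row group and given per 10000 with exact Poisson 95% intervals. A cell held 1153 to 250630 recovered UMIs, and the median of 23048 was above the labels' 10000 reads per cell. The label and the recovered scale thus disagree, and the reason was not tested. Shares of cells used cells thinned to 8000 UMIs, which dropped 34 cells in set 0 and 44 in set 1 as too shallow. No cell was removed as a doublet.

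The UMI recovery was tested on simulated data: all 600 cell totals came back, and 198 of 200 changed genes of at least 0.3 UMIs per 10000 came within 0.25 of the true log2 ratio. A first run on genes of at least 0.05 gave 166 of 200 and missed the preset mark, and the higher floor was set after that, so ratios of scarce members are less exact. All simulated UMIs were whole, whereas 31.1% of the members' values were, so the simulation could not test split UMIs. Its cell totals also spanned a narrower range than those of the table. Fold calls needed 0.02 UMIs per 10000 in either group and a ratio of 2, with a pseudocount of 0.001. In every such comparison a gene that reached the minimum in only 1 group had to differ. Named members were those at that minimum, with full values for members present outside cycling and the 3 leading members of each type. Members, lists and row rules were chosen with earlier results of these data known. Transcripts are from GENCODE M21 and promoters from RefSeq GRCm38.p6. Python 3.11.15, numpy 2.4.6, scipy 1.17.1, pandas 2.3.3, matplotlib 3.10.9 and Biopython 1.88 were used.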

Additional observations from a re-analysis of the deposited data

How the results depend on the processing

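Values here are log2 ratios of all members to Fabp1-high cells, and no value has a test. For S-marked cells (0.73) the ratio was 2.85 with the top 5% of cells, 0.054 with the top 20%, 0.94 with cells of 2 or more thinned marker UMIs, 0.69 from the mean of the deposited values, 0.92 on a total without mitochondrial, ribosomal protein and haemoglobin genes, 0.77 with both copies of shared barcodes, 0.63 with neither, 0.68 without the 5% deepest cells, 0.96 under a stricter filter on cells, 0.69 after thinning and 0.89 in set 0. For S and G2M cells (3.99) the same settings gave 4.40, 3.48, 4.08, 4.02 and 4.22, then 4.02 with neither copy, 4.03 without the deepest cells, 4.07 under the stricter filter, 4.03 after thinning, 3.97 in set 0 and 4.13 in set 1. For G2M-marked cells (3.20) they were 4.03 with the top 5%, 1.78 with the top 20%, 3.51 with 2 or more thinned UMIs, 3.38 on the reduced total, 3.22 without the deepest cells and 3.38 under the stricter filter. For non-cycling goblet-marked cells (0.24) they were 0.47 from the mean of the deposited values, 0.42 after thinning, 0.052 in set 0 and 0.53 in set 1.

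The sums of members below were chosen after seeing the data. Without Hist1h2bc the ratios were 1.49 for S-marked, 5.11 for S and G2M, 4.26 for G2M-marked and 0.45 for goblet-marked cells. With Gm20634 and H2afx they were 3.96 for S and G2M and 3.23 for G2M-marked cells. The Hist2h2aa1 and Hist2h2aa2 pair turned from -3.55 to 1.52 once Gm20634 was counted with it. Present members numbered 29 with a minimum of 0.01 in place of 0.02, against 15, and 12 to 22 under the other settings. Over the settings run, Hist1h2bc ranged from -1.10 to -0.58, Hist3h2a from 0.071 to 0.45 and Hist1h1c from 0.93 to 1.71. Of the single-member and pair values under other settings, 156 moved by less than their counting interval, 91 by more and 1 reversed.

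No paired analysis was possible because each genotype has 1 library and the sets carry no genotype. Depth limits scarce members: a level of 0.02 per 10000 in the 80 non-cycling goblet-marked cells rests on few UMIs, and set 1 gave 12 of those cells.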

Other observations

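The divergent pair Hist1h2ac and Hist1h2bc lay closer together in S and G2M cells than outside cycling, with Hist1h2bc the higher in both. Outside cycling Hist1h2bc stood at 2.82 UMIs per 10000 and Hist1h2ac at 0.109, and in S and G2M cells they stood at 1.50 and 1.29. In S and G2M cells 0.149% of the UMIs of Hist1h2ac were whole, so its level there is uncertain.

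Hist1h2ao differed more between the sets than its near copy Hist1h2ap in S and G2M cells, at 17.2 and 6.02 UMIs per 10000 in set 0 and set 1, against 30.3 and 26.8. Only 2.40% and 2.67% of the UMIs of these genes were whole there, and the assignment of UMIs between the copies was not tested.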
